A study of Homo sapiens with 6 samples.

Results

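Expression of 7 genes used as stem cell markers, CD24, CD44, PROM1, ALDH1A1, ALDH1A3, KIT and NES, was followed in OVCAR8, a cell line from high grade serous ovarian cancer. The genes were taken from a written list, of which CD24 was chosen by its measured decrease, about equal after both treatments, so its changes are given as a description without a test. The list was written with earlier results of these data known, so the p-values of the other members do not come from a blind choice. Of the 7, CD24, CD44, ALDH1A3 and NES were matched among the 14930 genes analysed and all 4 were tested, whereas PROM1, ALDH1A1 and KIT were not analysed here. RNA-Seq was available for 3 groups of 2 samples, collected 72 hours after the start of treatment. Control cells served for both comparisons. The second group received DZNep (5 μM), an inhibitor of S-adenosylhomocysteine hydrolase that reduces EZH2 protein and methylation in general. The third group, shEZH2, carried a doxycycline-inducible hairpin against EZH2 and received doxycycline (1 μg/mL). Dose units follow the study's methods, since the sample labels print mM and mg/mL. One hairpin line was sequenced. The sources name DMSO among the treatments but not which samples received it, and no doxycycline is recorded for the control samples, which are labelled only as control. Both OVCAR8 and the hairpin line were used, and which of them gave the control RNA is not stated, so effects of doxycycline, of the hairpin and of EZH2 silencing cannot be told apart. Nothing states that the 2 samples of a group came from separate cultures, so p-values measure only the spread between these samples.

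CD24 is a small, heavily glycosylated protein held in the membrane by a GPI anchor, and it binds P-selectin and the inhibitory receptor Siglec-10. CD44 is the main cell surface receptor for hyaluronan. Low CD24 with high CD44, or high aldehyde dehydrogenase activity, is widely used to sort tumor cells with stem-like behavior, and in ovarian cancer CD44, CD133 (PROM1), CD117 (KIT) and the ALDH1A enzymes are the usual markers. Nestin (NES) is an intermediate filament protein of neural progenitors. These are markers of sorted cell populations, whereas the present values are averages over whole cultures, in which fewer cells of a type and less RNA per cell cannot be told apart. The paper reports that DZNep and EZH2 silencing each reduced tumorsphere formation by ovarian cancer cells. Any relation of that result to the values below was not tested.

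Deposited values were scaled by the authors to totals between 999956 and 1000068 per sample and rounded. They are not read counts, and the depth is unknown. Fold changes below are differences of log2(value + 1) after TMM scaling (factors 0.92 to 1.12), tested with limma for 9671 genes, and calls were made at an adjusted p below 0.05 over this whole set. The values of EZH2 itself were 36 and 42 (control), 26 and 26 (DZNep) and 18 and 18 (shEZH2). It fell with both treatments, by a log2 fold change of -0.63 (SE 0.18, adjusted p = 0.026) and -1.12 (SE 0.18, adjusted p = 0.016). The shEZH2 samples lay closer together than other replicates. The SD across genes of the log2 difference between replicates was 0.141 in shEZH2, 0.428 in control and 0.447 in DZNep cells. Whether they came from 1 culture was not tested. For the lists, counts with these samples taken as 1 are given below only for shEZH2 and the direct comparison, over all lists together. The pair also enters the spread estimate shared by all tests, so the DZNep calls depend on it too. Of 16 listed serous and epithelial markers, 11 were analysed and 6 tested. The tested genes KRT7 (350 to 597), KRT8 (816 to 3540), KRT18 (1080 to 4398), MSLN (36 to 176), FOLR1 (13 to 26) and PAX8 (10 to 19) were present. WT1 (1 to 2), WFDC2 (0 to 3), CDH1 (0 to 8), CLDN3 (1 to 2) and CLDN4 (1 to 6) were low. MUC16, CDH6, MECOM, EMX2 and KRT19 were not analysed here. EPCAM, not counted in this list, was also low (5 to 12). Of the markers of other cells, 5 of 16 leukocyte, 5 of 8 endothelial and 7 of 11 fibroblast and smooth muscle genes were analysed. Summed values over the 6 samples ran from 21 to 79, from 8 to 23 and from 44 to 150. PTPRC and PECAM1 were not analysed here, and CD68, a lysosomal protein, made up most of the leukocyte sum.

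The genes with values lie on 4 chromosomes of GRCh38 (GENCODE v44). CD24 spans 106969831 to 106975627 on chromosome 6 (minus strand), ALDH1A3 spans 100877714 to 100916626 on chromosome 15 (plus strand), NES spans 156668763 to 156677407 on chromosome 1 (minus strand) and CD44 spans 35138882 to 35232402 on chromosome 11 (plus strand). GENCODE lists 4 processed pseudogenes of CD24 that are 82.0% to 99.2% identical to its transcripts over 211 to 243 aligned bases. None of them was analysed here, and how the quantification divided reads between them and CD24 is not given, so the level of CD24 carries that uncertainty. CD44 and ALDH1A3 each overlap 3 noncoding genes, which were not analysed here.

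The 250 bases before the first listed transcription start are shown for these genes. CD24 and ALDH1A3 were lower with both treatments, NES was called lower with DZNep only, and CD44 was called with neither. Capitals mark GGGCGG or its reverse complement CCGCCC, the core of the GC box bound by Sp1 family factors. The windows, from RefSeq on GRCh38.p14 and printed 5′ to 3′ on the strand of the gene, are chr6:106975628-106975877 for CD24, chr15:100879581-100879830 for ALDH1A3, chr1:156677408-156677657 for NES and chr11:35138921-35139170 for CD44.
CD24: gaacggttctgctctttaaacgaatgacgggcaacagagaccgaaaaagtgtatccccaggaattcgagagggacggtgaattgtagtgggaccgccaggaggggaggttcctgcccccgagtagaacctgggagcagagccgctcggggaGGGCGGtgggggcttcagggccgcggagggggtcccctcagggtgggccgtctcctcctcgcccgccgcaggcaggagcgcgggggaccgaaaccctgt
ALDH1A3: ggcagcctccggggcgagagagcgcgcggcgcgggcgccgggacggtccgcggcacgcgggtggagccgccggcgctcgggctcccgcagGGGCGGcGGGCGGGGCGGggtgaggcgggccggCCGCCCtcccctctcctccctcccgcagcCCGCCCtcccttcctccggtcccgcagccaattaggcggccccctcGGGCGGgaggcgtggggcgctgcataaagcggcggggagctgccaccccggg
NES: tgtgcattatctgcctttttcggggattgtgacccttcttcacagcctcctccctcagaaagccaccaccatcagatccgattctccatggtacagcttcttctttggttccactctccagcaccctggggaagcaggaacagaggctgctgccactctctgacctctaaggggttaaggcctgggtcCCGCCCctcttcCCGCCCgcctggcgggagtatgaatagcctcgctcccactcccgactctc
CD44: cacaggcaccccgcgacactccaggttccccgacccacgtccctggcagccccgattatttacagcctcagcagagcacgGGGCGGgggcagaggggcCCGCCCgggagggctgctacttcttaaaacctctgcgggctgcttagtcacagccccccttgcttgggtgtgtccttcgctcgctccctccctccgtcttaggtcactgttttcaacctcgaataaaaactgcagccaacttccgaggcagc

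The GC box letters occurred once before CD24, 6 times before ALDH1A3 with overlapping matches counted, and 2 times each before NES and CD44. Of 35116 RefSeq windows of this length, 42.6% hold at least 1. The windows also differed in CpG dinucleotides, with 38 for ALDH1A3, 20 for CD24, 15 for CD44 and 8 for NES, beside a median of 11 over all windows. ALDH1A3 held more CpG dinucleotides than 96.7% of all windows and CD24 more than 67.6%. CCAAT or ATTGG occurred 1 time before ALDH1A3 and in none of the others (32.0% of all windows), and TATAAA or TTTATA in none of the 4 (10.7% of all windows). RefSeq lists 3 starts for CD24 and 1 for each of the others. The RefSeq starts of ALDH1A3 (100879831) and CD44 (35139171) differ from the GENCODE starts (100877714 and 35138882). The windows of these 2 genes therefore lie within the GENCODE spans given above. These matches describe the letters of the windows and were not related to the values by any test.

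The control values of CD24, 156 and 205, stood against 30 and 49 after DZNep and 41 and 37 after EZH2 silencing. All 4 treated samples lay below both control samples, and the shEZH2 values fell between the DZNep values. How many of all tested genes separate from control in this way was not counted. Relative to control the level was 20.8% with DZNep and 21.5% with shEZH2, log2 fold changes of -2.26 (SE 0.20) and -2.22 (SE 0.20). The log2 difference between the treatments was 0.04, smaller than the spread of the DZNep samples (SD 0.31 on the log2 scale, n = 2). This near equality is what singled out CD24, and it depended on averaging the DZNep samples. Without DZNep replicate 1 the difference was -0.18, with shEZH2 the lower.

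CD44 was at nearly the same level in all groups, with values of 121 and 118 in control, 102 and 116 with DZNep, and 144 and 128 with shEZH2. As deposited, the 3 groups did not overlap, but after TMM scaling control and shEZH2 did. The log2 fold change was -0.21 with DZNep (SE 0.16, adjusted p = 0.33) and 0.13 with shEZH2 (SE 0.16, adjusted p = 0.62). The 95% intervals ran from -0.57 to 0.16 and from -0.23 to 0.50. shEZH2 cells were higher than DZNep cells by 0.34 (interval -0.03 to 0.71, adjusted p = 0.22), which did not pass.

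The level of CD44 relative to CD24 was higher in every treated sample than in the control samples. CD44 divided by CD24 was 0.776 and 0.576 without treatment, 3.4 and 2.37 after DZNep, and 3.51 and 3.46 after EZH2 silencing. The treated samples did not overlap the control samples. On the log2 scale the control mean was -0.58 ± 0.30 (SD, n = 2), the DZNep mean 1.48 ± 0.36 (SD, n = 2) and the shEZH2 mean 1.78 ± 0.02 (SD, n = 2), so the ratio was 4.16 and 5.11 times that of control. No test is attached, because the ratio contains the decrease that chose CD24. Whether the deposited values are per transcript length is not stated, so the ratio within a group does not say which transcript was more abundant.

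ALDH1A3 encodes a cytosolic dehydrogenase that oxidizes retinaldehyde to retinoic acid. Its values were 43 and 55 in control, 12 and 18 with DZNep, and 15 and 14 with shEZH2. It fell to 30.2% of control with either treatment, a log2 fold change of -1.73 with DZNep (SE 0.20, adjusted p = 0.00053) and of -1.73 with shEZH2 (SE 0.20, adjusted p = 0.0059). The difference between the treatments was 0.00 with a 95% interval from -0.45 to 0.46, so a 1.37-fold difference in either direction could not be told from none. Taking the mean of the shEZH2 pair as 1 sample raised the adjusted p for shEZH2 to 0.057, and leaving out either of the pair raised it to 0.062. Its lowest value over 17 alternatives was 4.5e-09. A limma adjusted p this low need not mean a smaller spread. With replicate number added to the fit, the DZNep value was 3.6e-10 at an SE of 0.21.

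NES had values of 74 and 69 in control, 38 and 36 with DZNep, and 47 and 44 with shEZH2. The groups did not overlap, in the order control, shEZH2, DZNep. Such separation is no test: CD44, which was not called, showed it too as deposited, and its share over all tested genes was not counted. It fell with DZNep to 49.9% of control (log2 fold change -1.0, SE 0.19, adjusted p = 0.0046). With shEZH2 the level was 62.0% of control (log2 fold change -0.69, SE 0.19) and the adjusted p of 0.061 did not pass, with a range of 0.0038 to 0.43 over 17 alternatives. The difference between the treatments, 0.31, also did not pass (interval -0.13 to 0.75, adjusted p = 0.33).

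Leaving out CD24, 2 of the 3 tested members were called lower with DZNep, where 20.4% of all 9671 tested genes were, and 1 of 3 with shEZH2, where 4.53% were. None was called higher, against 22.4% and 3.90% of all genes. In limma's direct comparison of shEZH2 with DZNep none of the 3 was called, and none had an unadjusted p under 0.05, while 4.42% of all genes were lower and 4.88% higher in shEZH2 cells. With so few members, listed with earlier results of these data known, these shares are no result about stem cell markers as a class. CD24 and ALDH1A3 shared a replicate pattern that NES did not, since replicate 1 was below replicate 2 in control and DZNep cells for both, and above it for NES. Over all tested genes the deviations of same-numbered control and DZNep samples correlated at 0.79. The shared order is thus not particular to these 2 genes, and RDX, for example, had it too.

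Since CD24 was chosen for its equal decrease, its place among other decreased genes is given only as a description. In all 533 tested genes with a DZNep log2 fold change of -1.5 or lower, the shEZH2 value was above the DZNep value. The median log2 difference was 1.01, with a range of 0.63 to 1.61 between the 10th and 90th percentiles. Selection on low DZNep values in itself favors such a difference. The difference was under 0.1 in 3 genes (0.563%), namely CD24, ALDH1A3 and UCA1, a long noncoding RNA first described in bladder cancer. UCA1, which was named after its values were seen, had 119 and 102 in control, 43 and 33 with DZNep, and 43 and 36 with shEZH2. When genes were selected by shEZH2 instead, 75 had a log2 fold change of -1.5 or lower, the same 3 genes were those within 0.1, and the median difference was 1.47. In 3 of the 75 the shEZH2 value was at or below the DZNep value. The closeness rested on both DZNep samples: without replicate 1 no gene of 553 lay within 0.1, and without replicate 2 none of 598.

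Likeness to each gene was measured as the root mean square difference, over the 6 samples, of log2 values centred on the control mean, among genes averaging 50 or more. The 5 genes nearest to CD24 of 3332 were CRTAP (0.514), IDI1 (0.531), ANXA8 (0.542), PFN2 (0.547) and DPH5 (0.565). ANXA8, an annexin, had 129 and 131 in control, 44 and 53 with DZNep, and 37 and 39 with shEZH2, whereas CRTAP fell further with DZNep (-2.98) than with shEZH2 (-1.78). ALDH1A3, whose mean was under that limit, lay closer to CD24 (0.421) than these 5. Among all 9670 other tested genes it ranked 4 in likeness to CD24, and NES ranked 924. In likeness to ALDH1A3, CD24 ranked 60 and ANXA8 was the nearest. Ranks that involve CD24 use the values it was chosen by. The genes nearest to CD44 were WNK1 (0.049), FAM120A (0.064) and MIR4435-2HG (0.065), all with log2 fold changes between -0.19 and 0.20.

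The pathways around these markers were read from 14 lists of 280 genes, of which 230 were analysed and 150 passed the filter and were tested. With DZNep 43 were called higher (28.7%, beside 22.4% of all tested genes) and 30 lower (20%, beside 20.4%), with a median log2 fold change of 0.13 (0.02 over all tested genes). With shEZH2 8 were called higher (5.33%, beside 3.90% of all tested genes) and 10 lower (6.67%, beside 4.53%), with a median of -0.02 (-0.01 over all tested genes). With the shEZH2 samples counted as 1, or with either left out, none of the 150 was called with shEZH2 by limma. Without control replicate 2 the number was 8, and without DZNep replicate 2 it was 29. The counts for single lists that follow are to be read against these shares over all tested genes. The lists, too, were chosen with earlier results of these data known.

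Of the other aldehyde dehydrogenases, 12 of 17 were tested. With DZNep 7 fell and 1 rose, and with shEZH2 3 fell. ALDH16A1 had 59 and 49 in control, 10 and 7 with DZNep, and 20 and 20 with shEZH2 (log2 fold changes -2.61 and -1.43). ALDH2, the mitochondrial enzyme that clears acetaldehyde, had 34 and 39, 8 and 11, and 21 and 20 (-1.92 and -0.85), and ALDH6A1, of valine breakdown, fell by 1.44 and 0.89 on the log2 scale. ALDH1L2, a mitochondrial folate enzyme, fell with DZNep (-2.28) and had -0.78 with shEZH2 (adjusted p = 0.087). ALDH1B1 went the other way and rose with DZNep alone among the contrasts with control, from 33 and 30 to 109 and 120, against 33 and 36 with shEZH2 (direct difference -1.68, adjusted p = 0.0039). ALDH16A1 and ALDH2 were lower with DZNep than with shEZH2 (differences of 1.18 and 1.07, adjusted p = 0.035 and 0.015), unlike ALDH1A3. The median of the 12 was -0.63 with DZNep and -0.28 with shEZH2.

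In retinoid handling, 10 of 27 genes were tested, and 3 fell and 1 rose with DZNep while 2 fell with shEZH2 (medians 0.27 and 0.01). DHRS4, a retinal reductase, had 31 and 33 in control, 6 and 6 with DZNep, and 14 and 15 with shEZH2. RDH11, which interconverts retinol and retinaldehyde, had 113 and 140, 34 and 48, and 72 and 71. Both fell with both treatments, with log2 fold changes of -2.30 and -1.14 for DHRS4 and of -1.69 and -0.85 for RDH11. RDH10, which makes the substrate of ALDH1A3 from retinol, fell with DZNep (-0.96, adjusted p = 0.007) and had -0.73 with shEZH2 (adjusted p = 0.061). RDH13 rose with DZNep, from 10 and 10 to 49 and 40. The receptors RXRA, RXRB and RARG had adjusted p-values of 0.073 or more in both contrasts.

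For CD24, the machinery that builds GPI anchors had 17 of 29 genes tested, of which 7 rose and 2 fell with DZNep (median 0.27) and 1 rose with shEZH2 (median 0.16). PIGC, of the first step of the anchor, rose with both, with 15 and 15 in control against 47 and 53 (DZNep, 1.6) and 28 and 27 (shEZH2, 0.79). PIGQ (-0.76) and GPAA1 (-0.74), the latter a subunit of the transamidase that attaches the anchor, fell with DZNep. Of 6 tested binding or signaling partners, LYN and FYN, kinases of the Src family, rose with DZNep and L1CAM and HMGB1 fell (median -0.23). With shEZH2 none of the 6 was called by limma, and HMGB1 came nearest (-0.70, adjusted p = 0.07, median of the 6 0.09).

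For CD44, 7 of 21 genes of hyaluronan and other ligands were tested, and 1 rose and 2 fell with DZNep while 1 fell with shEZH2 (medians -0.35 and -0.45). UGDH, which makes the UDP-glucuronate needed for hyaluronan, had 25 and 31 in control, 10 and 17 with DZNep, and 11 and 13 with shEZH2, and fell by similar amounts (-1.11 and -1.20, adjusted p = 0.0065 and 0.023). HAPLN3, a hyaluronan link protein, rose with DZNep from 6 and 5 to 31 and 26. HMMR, another hyaluronan receptor, differed widely between replicates, with 28 and 84 in control and 12 and 29 with DZNep, so the groups overlap although it was called lower (adjusted p = 0.04). Within each replicate number the DZNep value was the lower. Among 15 tested linkers and proteases 4 rose and 3 fell with DZNep and 1 fell with shEZH2 (medians -0.33 and -0.08). MMP14, a membrane protease that cleaves CD44, had 189 and 163 in control, 44 and 40 with DZNep, and 97 and 87 with shEZH2, and fell with both (-2.11 and -0.98). Ezrin (EZR), which links CD44 to actin, rose with DZNep (0.55), and radixin (RDX) fell (-1.33) with 88 and 188 in control against 35 and 81 with DZNep, also lower within each replicate number. Of 16 splicing regulators 2 rose and 3 fell with DZNep and none was called with shEZH2 by limma (medians -0.20 and -0.24). ESRP1 and ESRP2, which favor the variant exons of CD44 in epithelial cells, were low in every sample (1 to 3 and 2 to 7) and not tested.

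**Figure D1:**
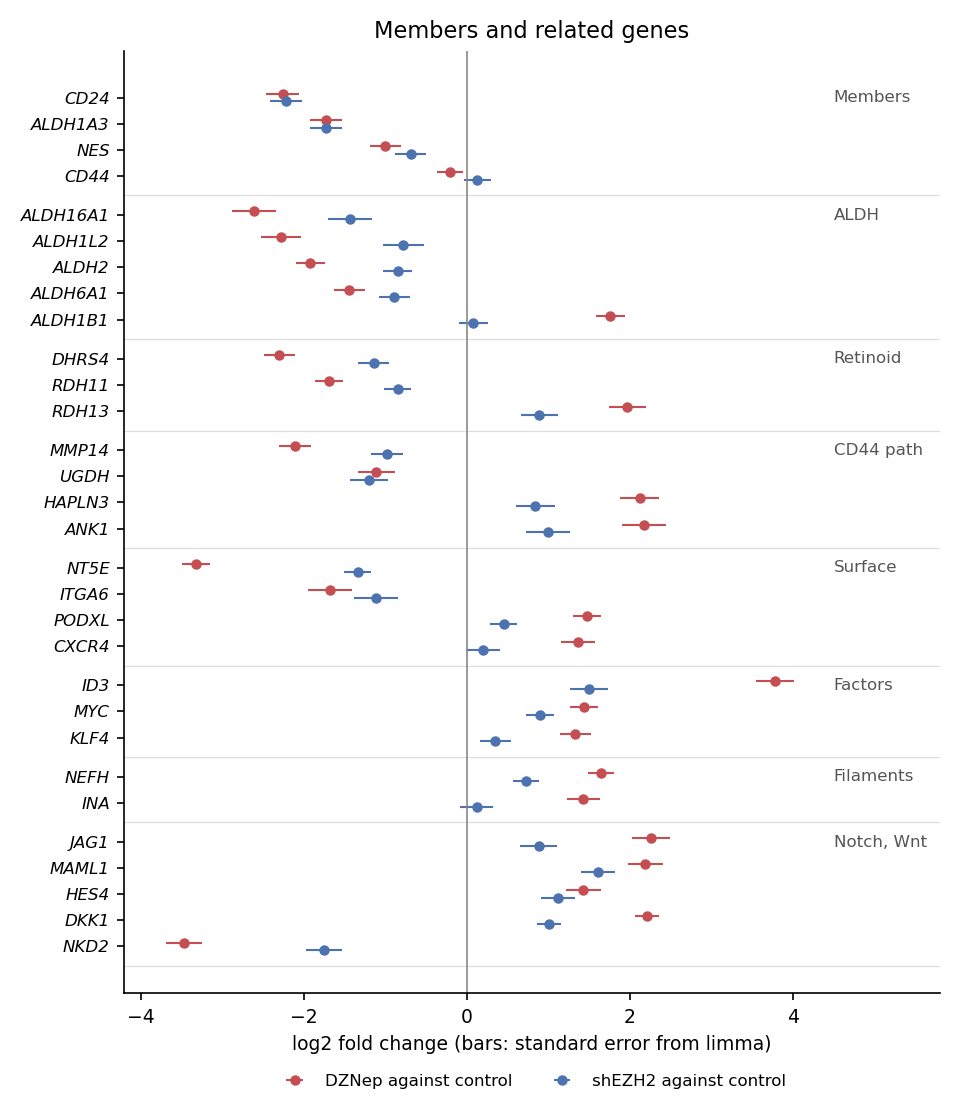
log2 fold change against control (x axis) of the 4 members and of genes of the related lists, with DZNep in red and shEZH2 in blue; bars are standard errors from limma, n = 2 per group. CD24 (-2.26 and -2.22) and ALDH1A3 (-1.73 and -1.73) have overlapping points, whereas most other genes lie further from 0 with DZNep. CD24 was chosen for this equality, and the related genes were picked mostly from the most changed called genes of their lists. The contrast is therefore only a description.

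Other surface markers of stem cells moved in both directions with DZNep, with 6 of 14 tested genes higher and 4 lower (median 0.21), and 2 fell with shEZH2 (median -0.04). NT5E (CD73), the ectoenzyme that makes adenosine, had 847 and 1135 in control, 86 and 122 with DZNep, and 417 and 386 with shEZH2. It fell with both (-3.32 and -1.34), and further with DZNep (difference 1.98, adjusted p = 0.0024). The laminin receptor subunit ITGA6 (CD49f) had 194 and 345, 62 and 115, and 130 and 118, and fell by 1.68 and 1.11 on the log2 scale. PODXL (78 and 74 to 217 and 229) and the chemokine receptor CXCR4 (11 and 9 to 28 and 29) rose with DZNep, and their shEZH2 values of 118 and 99 and of 12 and 12 were not called. Among prominin partners HDAC6, a cytoplasmic deacetylase, fell with DZNep from 51 and 52 to 30 and 23 (-1.01, adjusted p = 0.0094), and its shEZH2 values of 41 and 37 were not called (adjusted p = 0.24).

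Of 29 pluripotency and self-renewal factors 15 were analysed and 11 were tested. With DZNep 6 rose and none fell by limma (median 0.65), and with shEZH2 2 rose and none fell (median 0.15). The core factors SOX2, POU5F1 and NANOG were not analysed here. ID3, an inhibitor of helix-loop-helix factors, had 4 and 5 in control, 85 and 71 with DZNep, and 14 and 16 with shEZH2. MYC had 73 and 69, 201 and 207, and 136 and 139. Both rose with both treatments (3.78 and 1.5 for ID3, 1.44 and 0.90 for MYC). KLF4 rose with DZNep (5 and 6 to 15 and 17) and was 8 and 7 with shEZH2.

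Among 11 tested genes of KIT signaling 3 rose and 1 fell with DZNep and 1 rose with shEZH2 (medians -0.23 and 0.13). KITLG, the ligand of KIT, rose with DZNep from 5 and 8 to 10 and 20, with wide replicates, and had 9 and 7 with shEZH2. The related receptor PDGFRB rose with both, from 12 and 11 to 56 and 42 and to 37 and 34. DOK1, an adaptor that dampens such receptors, fell with DZNep (12 and 13 to 5 and 5). Of 7 tested filament partners of nestin 3 rose with DZNep and 1 with shEZH2 (medians 0.60 and 0.14), the opposite direction to NES. NEFH, a neurofilament subunit, had 49 and 50 in control, 159 and 172 with DZNep, and 87 and 83 with shEZH2. Vimentin (VIM), with which nestin assembles, stayed between 1972 and 2693 (-0.41 and -0.29, neither past the threshold).

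In the Notch and Hedgehog list 5 of 10 tested genes rose with DZNep and 2 with shEZH2 (medians 0.67 and 0.13). All 5 belong to Notch signaling, but so do all the tested genes of this list except SMO. The ligand JAG1 had 5 and 4 in control, 25 and 28 with DZNep, and 11 and 8 with shEZH2, where it was not called (adjusted p = 0.053). The coactivator MAML1 (11 and 9, 49 and 54, 36 and 31) and the target HES4 (38 and 40, 124 and 101, 97 and 81) rose with both. In the Wnt list 2 of 10 rose and 1 fell with DZNep, and 1 rose and 1 fell with shEZH2 (medians 0.27 and 0.23). DKK1, a secreted Wnt antagonist, rose with both (55 and 63, 254 and 329, 128 and 120). NKD2, an antagonist inside the cell, fell with both (25 and 25, 1 and 2, 7 and 7), where the low rounded values leave the size uncertain.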

How the data were processed

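RNA-Seq of 6 OVCAR8 samples was used, 2 each of control, DZNep and shEZH2, grouped by the sample titles. According to the methods, the authors depleted ribosomal RNA, made strand-specific libraries, used fastp for trimming and STAR for alignment (GRCh38, GENCODE v37), and obtained gene levels with RSEM. The deposited table holds a score per gene and sample, which the authors scaled to a common total and rounded. It has the form of TPM, but no source says so. A count test was therefore replaced by limma (version 3.58.1, R 4.3.3) with an intensity trend on log2(value + 1), after TMM factors without weights (30% of log ratios and 5% of mean values trimmed at each end). Genes that reached 10 in 2 or more samples were tested in 1 fit of 3 group means. Adjusted p-values use Benjamini and Hochberg's method, two-sided. The test was tried on simulated data with independent noise of equal SD in every group. The measured replicate spreads differ between the groups, so that trial does not cover this feature of the data.

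The members and lists were chosen with earlier results of these data known. Named genes are the members, EZH2, up to 2 called genes at each end of each list and contrast, the 5 genes nearest to CD24 and the 3 nearest to CD44, and marker genes; the text prints part of them. ALDH2, RDH10, the retinoid receptors, EZR, ESRP1, ESRP2, KLF4, VIM, KRT7 and UCA1 fall outside this rule and were named after their values were seen. So were FOLR1, WFDC2, CDH1, CLDN3 and CLDN4. Precision is limited by 2 replicates and by rounding. Alternatives were other scalings, filters, pseudocounts and fits, the replicate block, the study's fold threshold, and left-out samples. Gene positions came from GENCODE v44, and promoter windows from RefSeq. Plots used matplotlib 3.10.9 (Python 3.11.15). A gene of the lists is counted but not reported by name.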

Additional observations from a re-analysis of the deposited data

How the results depend on the processing

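The 17 alternatives left CD24 between -2.49 and -2.04 with DZNep and between -2.34 and -2.10 with shEZH2. ALDH1A3 and NES were called with DZNep under all 17, and CD44 in no contrast under any. Between the treatments, shEZH2 lay below DZNep for ALDH1A3 with the values as deposited (-0.02) and without DZNep replicate 1 (-0.15), and for CD24 without that sample (-0.18); with each sample left out, the range was -0.15 to 0.19 for ALDH1A3 and -0.18 to 0.30 for CD24. The cause was not tested. Deviations from the group means of same-numbered samples correlated at 0.79 between control and DZNep, which share a replicate pattern, but at -0.02 and -0.04 with shEZH2, so the numbers were not taken to pair all the samples. With the replicate block, 2 members and 90 list genes were called for DZNep, in place of 2 and 73, 2 members and 44 list genes were called for shEZH2 against control, in place of 1 and 18, and 49 list genes between the treatments, in place of 26. Called members for shEZH2 were also 2 with the values as deposited and with only the groups compared, NES being the added one in these and under the block. They were 0 with the mean of the shEZH2 pair taken as 1 sample, which leaves fewer samples. That averaging gave 0 list genes for shEZH2 and 4 between the treatments. An absolute log2 fold change above 1 with unadjusted p under 0.05 gave 42 list genes for DZNep, in place of 73, and 11 for shEZH2. With each sample left out in turn, called members were 2 for DZNep, 0 to 2 for shEZH2 and 0 between the treatments, and called list genes 49 to 75, 0 to 29 and 3 to 28. Genes decreased equally (within 0.1) numbered 7 with no filter and 2 or 3 under the other settings that kept all DZNep samples. These alternatives were chosen after seeing the data, and the fit of only the groups compared was not run for them. Rounding and 2 samples per group limit the low genes.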

Other observations

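Among serous and epithelial markers, MSLN fell while KRT8 and KRT18 rose with DZNep. MSLN, the surface antigen mesothelin, had 176 and 150 in control, 45 and 36 with DZNep, and 102 and 95 with shEZH2, and fell with DZNep (log2 fold change -2.06, SE 0.23, adjusted p = 0.00048 from limma). KRT8 had 1021 and 816, 3540 and 3046, and 1484 and 1494, and KRT18 had 1392 and 1080, 4398 and 3793, and 1591 and 1592. Both keratins rose with DZNep (1.77 and 1.66), and neither passed with shEZH2. KRT7 had 597 and 499, 585 and 503, and 355 and 350 and was not called (-0.08 with DZNep, -0.68 with shEZH2). PAX8, the lineage factor, fell with DZNep (17 and 19 to 10 and 13, adjusted p = 0.028 from limma). Of the 6 tested genes of this list 2 rose and 2 fell with DZNep, and with shEZH2 none was called by limma. Over all tested genes 22.4% rose and 20.4% fell with DZNep, and 3.9% rose and 4.53% fell with shEZH2. So few genes give no result about the list as a whole.

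Of the lists for other cell types, 1 leukocyte, 1 endothelial and 3 fibroblast or smooth muscle genes were tested. CD68 fell with both treatments (70 and 65 in control, 18 and 15 with DZNep, 32 and 28 with shEZH2). ESAM rose with DZNep (7 and 4 to 16 and 11). TAGLN, an actin-binding protein, rose with DZNep (15 and 12 to 74 and 58), and COL1A1 stayed between 9 and 16.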
